A study of Arabidopsis thaliana with 15 samples.

Results

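Cytochrome P450 genes of Arabidopsis thaliana leaves were followed across WT and 4 subtypes of the ubc22 mutant. The genes were those on chromosomes 1 to 5 whose annotation in the deposited table names a cytochrome P450, less 12 named codes, most of them known from glucosinolate synthesis. This gave 228 genes of 34307 loci in the table. Where a code had several rows, as for 22 of these genes, the row with the largest sum was kept, and the other rows held at most 11.8% of a gene's reads. Annotation wording decides membership, so CYP81F genes that modify indole glucosinolates remained, while some P450 genes of hormone synthesis with other annotation text (BR6OX1, BR6OX2 and GA3) and the cinnamate and ferulate hydroxylases C4H and FAH1 are not included.

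Plants were of the Col-0 accession and 21 days old, and each group gave 3 libraries, which the labels call biological replicates. The genotype is given as WT or ubc22, and the allele, its zygosity and the number of independent lines are not given in the sources used here. UBC22 encodes an enzyme that conjugates ubiquitin. All mutant plants came from 1 parent and their subtype was assigned by leaf appearance: Type I looked like WT, Type II had broad round leaves, Type III had long, narrow, pale leaves, and Type IV had toothed leaves on small plants. How many plants went into a library and the hour of harvest are not given, so p-values measure only the spread between these libraries.

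Cytochrome P450 enzymes are haem proteins of the endoplasmic reticulum and plastid that insert oxygen into small molecules, mostly with electrons from the reductases ATR1 and ATR2. In leaves they make and break down brassinosteroids, gibberellins, abscisic acid and jasmonates, hydroxylate carotenoids, build the fatty acids of the cuticle, and modify terpenoids and defence compounds. Many lie in tandem arrays of close copies, and for most of these no substrate is known.

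Libraries held 8865955 to 13138977 recovered reads. UBC22 had normalized counts of 663, 696 and 696 in WT, 226, 252 and 305 in Type I, 227, 288 and 302 in Type II, 319.6, 294 and 296 in Type III, and 318, 378 and 243 in Type IV, so that every WT library lay above every mutant library. Its fold changes on the log2 scale were -1.399, -1.34, -1.17 and -1.15 in Types I to IV, each with a limma adjusted p of 0.000436 or less. A chromosome-wide shift accompanied 3 subtypes: relative to the other nuclear chromosomes, the median log2 fold change of tested genes was 0.57 higher on chromosome 2 in Type II, 0.58 higher on chromosome 3 in Type III, and -0.47 on chromosome 4 in Type IV, whereas in Type I it lay between -0.01 and 0.00. Results are therefore also given after each library was centred on the median of each chromosome. The leaf markers RBCS1A, LHCB1.1, LHCB2.1, RCA and CAB3 summed to 450559 to 639395 normalized counts. The 7 root markers summed to 806 to 998 in WT libraries, 1023 to 1098 in those of Type I, 1323 to 1705 for Type II, 1275 to 1845 for Type III and 689 to 819.6 for Type IV. The 3 tested root markers did not move together. PYK10 was called higher in Types II and III (log2 change 1.34 and 1.56). SHR was called lower in Types III and IV (-0.75 and -0.95). The 6 flower markers summed to 18.2 to 30.4 in WT libraries, 54.7 to 112 in those of Type I, 12.0 to 13.4 for Type II with AP1 and AP3 at 0, 76.7 to 156 for Type III and 38.2 to 49.0 for Type IV, and the part of either marker list in the results was not tested. Of 3 tested flower markers, SEP3, AP1 and AG were called higher in Type III, and AP1 was called lower in Type II. In such bulk leaf RNA, fewer cells of a type and less RNA per cell cannot be told apart.

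Of the 228 P450 genes, 43 had no read in any library, 52 had a mean above 0 and under 1, and 27 had a mean of 1 to under 10 normalized counts. The other 106 genes, 46.5% against 51.3% of all loci, reached the mean of at least 10 over the 15 libraries that was needed for testing. Just below that minimum lay CYP86A1, a suberin hydroxylase, at a mean of 9.99, and CYP94B1, a jasmonate oxidase, at 9.39. Of those tested, 48 had a mean under 100, 53 a mean of 100 to under 1000, and 5 a mean of 1000 or more. The 5 most abundant genes held 29.6% of all normalized counts of the family. Together the 228 genes took 0.241% ± 0.0288 (SD, n = 3) of the counts of a WT library. The share was 0.253% ± 0.0123 for Type I, 0.264% ± 0.0111 for Type II, 0.249% ± 0.0143 for Type III and 0.267% ± 0.00377 for Type IV.

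On the scale of mean normalized counts per kb of transcript, the highest levels were 1162 for CPD, a brassinosteroid synthesis enzyme, 980.0 for CYP72A11, 678 for the cuticle gene CYP86A2, 607 for CYP97A3 and 512 for CYP97B3. The last pair hydroxylate carotenoids. CYP71B7 followed at 488 and the sterol demethylase gene CYP51G1 at 384. The genes belong to 39 families by name. They lie in 38 tandem runs of at least 2 members with at most 2 other genes between neighbours, which hold 131 of the 228 genes and reach 9 members. How reads that match several such close copies were counted is not given, and the values of tandem members are uncertain to that extent.

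Differences from WT were tested with limma on log2(normalized count + 1) across 17595 loci, with a call at a Benjamini-Hochberg adjusted p under 0.05, and every adjusted p below is of this kind. Values listed per library below are normalized counts of replicates 1, 2 and 3 of a group. A fold change on this scale understates the change of low genes. In Type I no P450 gene was called in either direction, where 0.0455% of all loci were called higher and 0.0284% lower. At an unadjusted p under 0.05 there were 26 P450 genes among 2549 loci, edgeR on recovered reads called 0, and DESeq2 called 3 higher (CYP706A3, CYP708A3 and CYP89A2) and 1 lower (CYP76C6), where DESeq2 called 0.83% of all loci higher and 0.324% lower. In Type II 12 genes rose and 5 fell, with 10.2% of all loci called higher and 4.38% called lower. In Type III 35 genes rose and 27 fell, where all loci gave 24% and 23.6%. In Type IV 28 rose and 12 fell, where all loci gave 16% and 17%.

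As shares of the 106 tested genes, 11.3% rose and 4.72% fell in Type II, which is near the share of all loci. In Type III 33% rose and 25.5% fell, and the former share lies above that of all loci. For Type IV the shares were 26.4% and 11.3%, the first above and the second below that of all loci. Tested P450 genes had a median log2 fold change of 0.11 in Type II against -0.02 for all loci, -0.02 against -0.01 in Type III, and 0.18 against 0.00 in Type IV. After centring per chromosome 23 P450 genes were higher and 31 lower in Type III, that is, 21.7% and 29.2% of those tested, where all loci gave 20.6% and 21.6%. The higher share was then near that of all loci and the lower share above it. In Type II centring left 7 higher and 3 lower, or 6.6% and 2.83%, where all loci gave 1.99% and 0.881%. In Type IV it left 26 higher and 10 lower, or 24.5% and 9.43%, where all loci gave 13.3% and 13.2%. In Type II 21 genes rose when WT replicate 1 was left out and 6 when WT replicate 3 was, and the count of fallen genes was 3 without WT replicate 3 or without Type II replicate 3. WT replicate 1 lay at least 2-fold above both other WT libraries in 12 of the 106 genes, the most of any library.

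**Figure D1:**
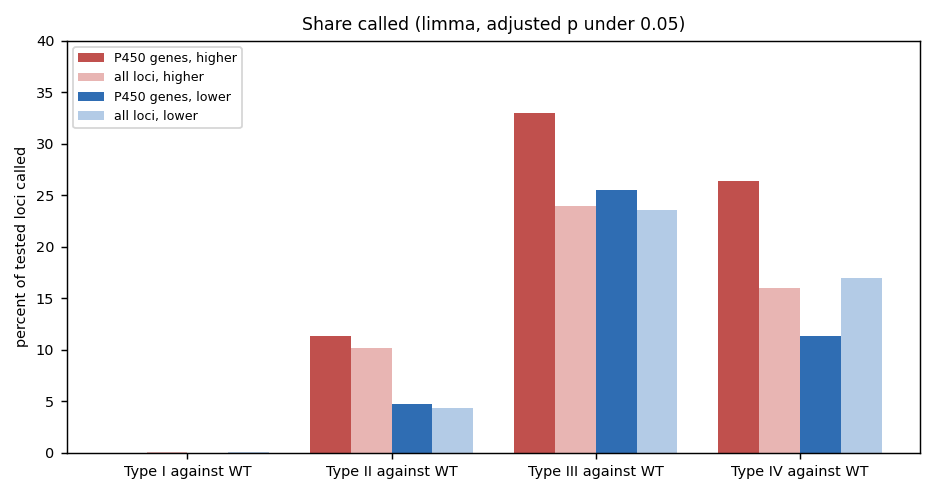
Bars give the percent of the 106 tested P450 genes and of all 17595 tested loci called higher or lower than WT (limma, adjusted p under 0.05) in each subtype. In Type IV, 26.4% of P450 genes and 16% of all loci were called higher.

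Across subtypes 28 of the 106 genes were called in none and 78 in at least 1. The most frequent patterns were a rise in Type III alone in 17 genes, a rise in both Types III and IV in 16, a fall in Type III alone in 12, a rise in Type IV alone in 8, and a fall in both Types III and IV in 7. Since the subtypes share the same WT libraries, such joint calls are not independent. CYP76C1 and CYP705A20 rose in Types II, III and IV. No gene was called in Type I.

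**Figure D2:**
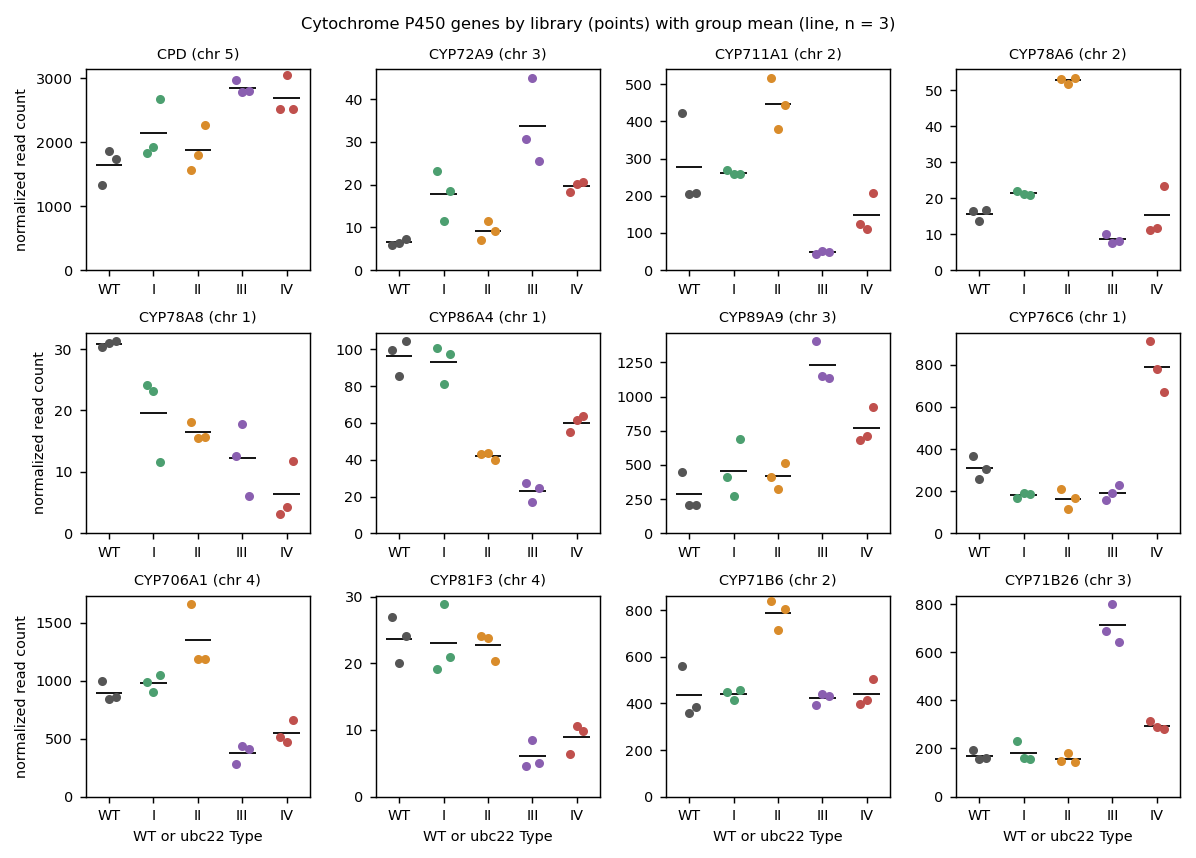
Points are normalized read counts of single libraries and lines are group means (n = 3) for selected P450 genes in WT and ubc22 Types I to IV. Libraries of CYP711A1 in Type III sit between 44.2 and 51.6, below all WT libraries at 205 to 422.

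Of 5 brassinosteroid genes, CPD and CYP90D1 rose in both Type III and Type IV, and none was called in Type II. Over all loci, 24% were called higher in Type III and 16% in Type IV. CPD, which oxidizes early intermediates of the pathway (AT5G05690, chr5:1702640-1706948, TAIR10.1), stood at 1333, 1866 and 1736 in WT, 1825, 1921 and 2676 in Type I, 1570.0, 1793 and 2269 in Type II, 2966, 2779.7 and 2807 in Type III, and 2519, 3054 and 2514 in Type IV. The Type III and Type IV libraries all lay above WT, while those of Type I overlapped with it. For this gene the log2 fold changes were 0.81 ± 0.16 (SE, adjusted p = 0.000943) in Type III and 0.72 ± 0.16 (SE, adjusted p = 0.00397) in Type IV. CYP90D1, which acts on side-chain intermediates (AT3G13730, chr3:4497893-4500920), stood at 37.4, 48.2 and 42.1 in WT, 31.2, 42.4 and 40.7 in Type I, 40.1, 68.3 and 55.4 in Type II, 92.1, 112 and 90.7 in Type III, and 73.2, 73.4 and 56.7 in Type IV. Type III and IV libraries again did not overlap with WT. Limma gave log2 fold changes of 1.19 ± 0.20 (SE, adjusted p = 0.000224) in Type III and 0.66 ± 0.20 (SE, adjusted p = 0.0214) in Type IV. Its Type III log2 fold change was 0.71 after centring per chromosome. CYP90D1 lost its Type IV call after centring per chromosome (adjusted p = 0.0558) and without WT replicate 1 or 3 or Type IV replicate 1 or 2 (adjusted p = 0.0527 to 0.0776).

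DWF4, the hydroxylase at the entry of the pathway's main branch, stood at 147, 138 and 172 in WT, and 235, 255 and 180.4 in Type III. All Type III libraries lay above WT, with a log2 change of 0.54 ± 0.23 (SE, adjusted p = 0.0644) that was not called, but passed in DESeq2 (adjusted p = 0.0466), with the compared groups alone (adjusted p = 0.021) and without Type II replicate 1 or 3 or Type III replicate 3 (adjusted p = 0.0231 to 0.0457). DWF4 lies on chromosome 3, and after centring per chromosome the Type III value was 0.06 (adjusted p = 0.848). The inactivating enzymes BAS1 and CYP72C1 were not called in any subtype: in Type IV they stood at log2 fold changes of -0.25 (adjusted p = 0.477) and -0.58 (adjusted p = 0.0573). For CYP72C1, after centring per chromosome (adjusted p = 0.0369) and without WT replicate 1 or Type I replicate 3 or Type II replicate 1 or 3 (adjusted p = 0.0317 to 0.046), the difference passed. Of 7 other genes of the pathway, 3 rose and 2 fell in Type III, 1 rose and 1 fell in Type IV, and 1 rose in Type II. Shares of all loci called higher and lower were 24% and 23.6% in Type III and 16% and 17% in Type IV. In Type II 10.2% were called higher. DWF1 and DET2, sterol and steroid reductases of brassinosteroid synthesis, had log2 changes of 0.65 ± 0.09 (SE, adjusted p = 5.54e-05) and 0.68 ± 0.13 (SE, adjusted p = 0.000769) in Type III, and the reductase DWF5 had -0.36 ± 0.08 (SE, adjusted p = 0.00287). DWF1 lost its Type III call after centring per chromosome (adjusted p = 0.143).

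Gibberellin genes on the list were 4, of which 2 were tested and both rose in Type IV. In that subtype 16% of all loci were called higher. CYP72A9, a gibberellin hydroxylase at low level (AT3G14630, chr3:4917327-4919702), stood at 5.85, 6.36 and 7.22 in WT, 23.2, 11.6 and 18.6 in Type I, 7.02, 11.4 and 9.24 in Type II, 30.7, 45.0 and 25.5 in Type III, and 18.3, 20.2 and 20.5 in Type IV. Libraries of Types I, III and IV all lay above WT, while Type II overlapped with it. On the log2 scale the fold changes were 2.18 ± 0.30 (SE, adjusted p = 3.93e-05) in Type III, 1.47 ± 0.30 (SE, adjusted p = 0.00208) in Type IV and 1.28 ± 0.30 (SE, adjusted p = 0.109) in Type I, of which the last was not called. Without Type I replicate 2 the Type I difference passed (adjusted p = 0.0435). CYP88A3, which makes the gibberellin precursor from kaurenoic acid, stood at 119, 104 and 141 in WT, 162, 128 and 165 in Type I, 153, 184 and 176 in Type II, 144, 142 and 143 in Type III, and 174, 165 and 162 in Type IV. It rose in Types II and IV, with a log2 change of 0.50 ± 0.13 (SE, adjusted p = 0.01697) and 0.47 ± 0.13 (SE, adjusted p = 0.01202). CYP88A3 lost its Type II call with the compared groups alone (adjusted p = 0.0795) and without WT replicate 2 or Type II replicate 2 or 3 (adjusted p = 0.0575 to 0.0825). CYP88A3 lost its Type IV call without WT replicate 2 (adjusted p = 0.0628).

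Among 7 tested partners in gibberellin metabolism, 4 rose and 1 fell in Type III, 2 rose and 2 fell in Type IV, and none was called in Type II. Shares of all loci called higher and lower were 24% and 23.6% in Type III and 16% and 17% in Type IV. GA2OX2, which inactivates gibberellins, had a log2 change of 2.37 ± 0.27 (SE, adjusted p = 6.94e-06) in Type III and 1.26 ± 0.27 (SE, adjusted p = 0.00272) in Type IV. GA20OX2, which makes them, had 2.39 ± 0.41 (SE, adjusted p = 0.000261) and 1.79 ± 0.41 (SE, adjusted p = 0.00427). The kaurene synthase GA2 rose, with a log2 change of 0.78 ± 0.13 (SE, adjusted p = 0.0001996) in Type III. The partners called lower were GA3OX1 in Types III and IV and GA20OX1 in Type IV.

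The 4 hydroxylases that break down abscisic acid were all tested, and 2 of them rose in Type III, while none was called in Types II and IV. In Type III 24% of all loci were called higher. CYP707A2 stood at 21.05, 7.27 and 9.63 in WT, and 27.99, 25.3 and 28.5 in Type III, with no overlap, and CYP707A4 at 26.9, 26.4 and 26.5 in WT, and 49.7, 67.5 and 56.1 in Type III, with no overlap either. Their log2 fold changes were 1.18 ± 0.39 (SE, adjusted p = 0.0211) and 1.08 ± 0.34 (SE, adjusted p = 0.0174). CYP707A2 lost its Type III call without WT replicate 2 or 3 or Type III replicate 1 or 3 (adjusted p = 0.0546 to 0.0982). CYP707A4 lost its Type III call after centring per chromosome (adjusted p = 0.169) and without Type III replicate 2 (adjusted p = 0.0629). CYP707A1 stood at 17.5, 20.9 and 18.1 in WT, 26.2, 27.01 and 50.001 in Type I, 45.1, 39.3 and 57.3 in Type II, 8.12, 22.5 and 7.13 in Type III, and 6.37, 20.2 and 12.7 in Type IV, so that Types I and II lay above WT. Type III had 2 libraries below WT and 1 above it, and Type IV had 2 below and 1 within the WT range. Its log2 fold change of 1.27 ± 0.42 (SE, adjusted p = 0.0575) in Type II was not called, but passed with a pseudocount of 5 (adjusted p = 0.0375), in edgeR (adjusted p = 0.0377), in DESeq2 (adjusted p = 0.0232), with the compared groups alone (adjusted p = 0.0188) and without Type III replicate 2 or Type IV replicate 1 or 2 (adjusted p = 0.029 to 0.0449). CYP707A3 varied widely within groups, at 137, 59.1 and 95.1 in WT, 187, 163 and 551 in Type I, and 60.5, 324 and 91.9 in Type IV, and was not called. NCED3, which releases the precursor of abscisic acid, rose in Types II, III and IV, with a log2 change of 0.96, 2.03 and 0.79 (adjusted p = 0.03797, 5.29e-05 and 0.0467). NCED3 lost its Type II call with no filter (adjusted p = 0.0541), after centring per chromosome (adjusted p = 0.0675), with the compared groups alone (adjusted p = 0.0934) and without WT replicate 2 or 3 or Type II replicate 2 or 3 (adjusted p = 0.0592 to 0.15). NCED3 lost its Type IV call with a pseudocount of 5 (adjusted p = 0.0501), with a minimum mean of 1 (adjusted p = 0.0516), with no filter (adjusted p = 0.0666), in edgeR (adjusted p = 0.0502), after centring per chromosome (adjusted p = 0.0915), with the compared groups alone (adjusted p = 0.0877) and without WT replicate 1 or 2 or 3 or Type I replicate 2 or Type III replicate 1 or 2 or 3 or Type IV replicate 1 or 2 (adjusted p = 0.0504 to 0.202). ABA1 and ABA2 of the same synthesis fell in Type III, with a log2 change of -0.57 ± 0.09 (SE, adjusted p = 0.000134) and -0.38 ± 0.09 (SE, adjusted p = 0.00272).

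Jasmonate oxidases were low and variable. CYP94B3 stood at 8.19, 44.6 and 2.41 in WT, 18.1, 15.4 and 54.7 in Type I, 7.02, 19.7 and 43.4 in Type II, 2.71, 14.1 and 6.12 in Type III, and 34.2, 48.97 and 3.91 in Type IV and CYP94C1 at 17.5, 20.9 and 18.1 in WT, 31.1, 26.9 and 54.5 in Type II, and 24.7, 58.5 and 10.8 in Type IV. Neither was called in any subtype, and 2 further listed genes were too low for testing. Of 5 partners that make, conjugate or release jasmonate, 4 rose in Type II, 1 rose in Type IV and none was called in Type III. Over all loci, 10.2% were called higher in Type II and 16% in Type IV. The median log2 change of these partners was 1.14 in Type II and 1.145 in Type I, where none was called. None of them was called in Type II against Type I. OPR3, a reductase of jasmonate synthesis, had a log2 change of 1.59 ± 0.35 (SE, adjusted p = 0.00795) in Type II and 1.19 ± 0.35 (SE, adjusted p = 0.0184) in Type IV. JAR1, which joins jasmonate to isoleucine, had 0.58 ± 0.13 (SE, adjusted p = 0.00684) in Type II, and IAR3, an amidohydrolase that cleaves such conjugates, had 1.03 ± 0.29 (SE, adjusted p = 0.0284). OPR3 lost its Type II call after centring per chromosome (adjusted p = 0.119). OPR3 lost its Type IV call without WT replicate 3 or Type IV replicate 1 or 2 (adjusted p = 0.0769 to 0.0843). JAR1 lost its Type II call after centring per chromosome (adjusted p = 0.777) and with the compared groups alone (adjusted p = 0.0651). IAR3 lost its Type II call after centring per chromosome (adjusted p = 0.0565), with the compared groups alone (adjusted p = 0.0855) and without WT replicate 2 or 3 or Type II replicate 3 (adjusted p = 0.0694 to 0.13).

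CYP711A1, known as MAX1 and required for strigolactone synthesis, showed the deepest fall in Type III of all tested P450 genes. It stood at 422, 205 and 208 in WT, 269.7, 258 and 259 in Type I, 516, 381 and 444 in Type II, 44.2, 51.6 and 49.9 in Type III, and 123, 109.6 and 208 in Type IV (AT2G26170, chr2:11140809-11143360). Type III libraries lay far below every WT library, Type I and Type II overlapped with WT, and Type IV replicate 3 met the lowest WT values. Against WT the log2 fold changes were -2.41 ± 0.25 (SE, adjusted p = 3.65e-06) in Type III and -0.89 ± 0.25 (SE, adjusted p = 0.0155) in Type IV. CYP711A1 lost its Type IV call with the compared groups alone (adjusted p = 0.0919) and without WT replicate 1 or Type IV replicate 1 or 2 (adjusted p = 0.058 to 0.0707). In Type II the value of 0.76 ± 0.25 (SE, adjusted p = 0.0592) was not called, but passed without WT replicate 1 or Type IV replicate 3 (adjusted p = 0.00321 to 0.0292). After centring per chromosome it was 0.26 (adjusted p = 0.618). The 2 genes for cytokinin hydroxylases on the list were too low for testing.

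Of 3 carotenoid hydroxylase genes, 2 fell in each of Types II and IV and 1 fell in Type III, while none rose. Shares of all loci called lower were 4.38%, 23.6% and 17% in Types II, III and IV. CYP97A3, which acts on the ring of carotene on the way to lutein (AT1G31800, chr1:11396402-11399714), stood at 1598, 1627 and 1564 in WT, 1268, 1422 and 1147 in Type I, 969, 1231 and 930.1 in Type II, 1067, 1127 and 1108 in Type III, and 1416, 1305 and 1076 in Type IV. All 12 mutant libraries lay below the 3 WT libraries. Its log2 fold change was -0.62 ± 0.12 (SE, adjusted p = 0.00302) in Type II, -0.54 ± 0.12 (SE, adjusted p = 0.00176) in Type III and -0.34 ± 0.12 (SE, adjusted p = 0.0363) in Type IV, and -0.33 ± 0.12 (SE, adjusted p = 0.246) in Type I, where it was not called. CYP97A3 lost its Type IV call with library totals (adjusted p = 0.0689), with the compared groups alone (adjusted p = 0.0636) and without WT replicate 1 or 2 or 3 or Type IV replicate 2 or 3 (adjusted p = 0.0576 to 0.144). CYP97B3 stood at 1260.5, 1231 and 1083 in WT, and 864, 825 and 806 in Type IV, with a log2 change of -0.52 ± 0.09 (SE, adjusted p = 0.000685), and fell in that subtype. It lies on chromosome 4. CYP97B3 lost its Type IV call after centring per chromosome (adjusted p = 0.472). LUT1, the partner of CYP97A3 in lutein synthesis, stood at 564, 774 and 674 in WT, 523, 561 and 474 in Type II, and 686, 690.0 and 692 in Type III. It fell in Type II only, with a log2 change of -0.36 ± 0.11 (SE, adjusted p = 0.0351). LUT1 lost its Type II call with library totals (adjusted p = 0.0535), after centring per chromosome (adjusted p = 0.154), with the compared groups alone (adjusted p = 0.138) and without WT replicate 2 or 3 or Type II replicate 1 or 3 (adjusted p = 0.0723 to 0.161). After centring per chromosome LUT1, on chromosome 3, was lower than WT in Type III too, at -0.42 (adjusted p = 0.00502), where the uncentred value was 0.05 ± 0.11 (SE, adjusted p = 0.714).

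CYP89A9, which oxidizes breakdown products of chlorophyll in ageing leaves, was higher in Types III and IV. It stood at 446, 205 and 205 in WT, 415, 272 and 687 in Type I, 414, 323 and 514 in Type II, 1408, 1151 and 1139 in Type III, and 681, 709 and 924 in Type IV (AT3G03470, chr3:824552-826585). Every Type III and Type IV library lay above the highest WT library, which was WT replicate 1, while Types I and II overlapped with WT. The log2 fold change was 2.21 ± 0.32 (SE, adjusted p = 5.57e-05) in Type III and 1.52 ± 0.32 (SE, adjusted p = 0.00229) in Type IV.

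Sterol genes gave 1 called gene of 2 tested. Over all loci, 14.6% were called in either direction in Type II and 47.6% in Type III. CYP710A2, which makes stigmasterol-type sterols by desaturating the side chain (AT2G34490, chr2:14535506-14537556), stood at 54.96, 60.01 and 50.5 in WT, 83.5, 79.1 and 97.7 in Type I, 115, 101 and 153 in Type II, 17.2, 46.9 and 24.5 in Type III, and 30.2, 35.1 and 51.8 in Type IV. Types I and II lay above WT and Type III below it, without overlap, and Type IV reached the lowest WT library. Limma gave log2 fold changes of 1.13 ± 0.29 (SE, adjusted p = 0.0172) in Type II and -0.997 ± 0.29 (SE, adjusted p = 0.0108) in Type III. CYP710A2 lost its Type II call after centring per chromosome (adjusted p = 0.248) and without WT replicate 3 or Type II replicate 3 (adjusted p = 0.062 to 0.0785). CYP710A2 lost its Type III call without Type III replicate 1 (adjusted p = 0.0617). CYP51G1, the sterol demethylase, stood at 703, 878 and 839.9 in WT, 839.6, 726 and 818 in Type III, and 743, 815 and 698 in Type IV and was not called in any subtype.

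For phenylpropanoids CYP98A3, the hydroxylase that feeds lignin units, stood at 488, 456 and 464 in WT, 510.3, 518 and 534 in Type I, 732, 597 and 518 in Type II, 340.3, 346 and 385 in Type III, and 421, 378 and 508 in Type IV. Type III lay below and Types I and II above WT without overlap. It fell in Type III, with a log2 change of -0.39 ± 0.12 (SE, adjusted p = 0.0157). CYP98A3 lost its Type III call after centring per chromosome (adjusted p = 0.0512) and without Type III replicate 1 (adjusted p = 0.0555). In Type II the value of 0.38 ± 0.12 (SE, adjusted p = 0.0518) was not called, but passed with a minimum mean of 50 (adjusted p = 0.0478), with library totals (adjusted p = 0.0356), in edgeR (adjusted p = 0.0404), in DESeq2 (adjusted p = 0.0313) and without Type II replicate 3 or Type IV replicate 2 or 3 (adjusted p = 0.0214 to 0.0436). The gene lies on chromosome 2, and after centring per chromosome the Type II value was -0.12 (adjusted p = 0.603). CYP84A4, of the arabidopyrone route, was not called. Of 12 partners of the pathway 1 rose and 6 fell in Type III, 1 rose and 5 fell in Type IV, and 1 rose and 2 fell in Type II. By comparison, all loci gave 24% higher and 23.6% lower in Type III and 16% and 17% in Type IV. In Type II they gave 10.2% and 4.38%. PAL1, the entry enzyme, had log2 changes of -1.22 ± 0.17 (SE, adjusted p = 4.23e-05) in Type III and -0.65 ± 0.17 (SE, adjusted p = 0.00884) in Type IV. HCT, which makes the substrate of CYP98A3, had -0.85 ± 0.09 (SE, adjusted p = 5.47e-06) in Type III and -0.32 ± 0.09 (SE, adjusted p = 0.0158) in Type IV. HCT lost its Type IV call without WT replicate 1 or Type IV replicate 1 (adjusted p = 0.0519 to 0.0575).

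Cuticle genes were mostly lower where they were called in Types III and IV. The list of cutin, suberin and wax P450 genes had 19 genes with 9 tested, of which 1 rose and 6 fell in Type III, 3 fell in Type IV, and 1 rose and 1 fell in Type II. For comparison, all loci gave 24% higher and 23.6% lower in Type III and 16% and 17% in Type IV. In Type II they gave 10.2% and 4.38%. The CYP86A fatty acid hydroxylases supply the oxygenated acids of cutin, and all 4 tested were lower in Type III. CYP86A4 stood at 99.4, 85.5 and 105 in WT, 101, 81.02 and 97.7 in Type I, 43.1, 43.5 and 39.7 in Type II, 27.1, 16.9 and 24.5 in Type III, and 54.9, 61.7 and 63.6 in Type IV (AT1G01600, chr1:218834-221286). Libraries of Types II, III and IV all lay below WT, and Type I overlapped with it. On the log2 scale the fold changes were -1.17 ± 0.17 (SE, adjusted p = 0.000623) in Type II, -2.06 ± 0.17 (SE, adjusted p = 4.54e-07) in Type III and -0.67 ± 0.17 (SE, adjusted p = 0.00836) in Type IV.

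CYP86A2, by level the strongest cuticle gene and known from loss-of-function plants with a thin cuticle (AT4G00360, chr4:160643-163023), stood at 1810.1, 1806 and 1809 in WT, 2028, 1937 and 2378 in Type I, 2026, 978 and 1507 in Type II, 1111, 899 and 879.6 in Type III, and 876, 1396 and 1092 in Type IV. WT libraries were within a few counts of each other, all Type III and IV libraries lay below them, and Type II scattered on both sides. It fell, with a log2 change of -0.92 ± 0.21 (SE, adjusted p = 0.002397) in Type III and -0.71 ± 0.21 (SE, adjusted p = 0.0174) in Type IV. CYP86A2 lost its Type IV call after centring per chromosome (adjusted p = 0.326) and without Type IV replicate 1 (adjusted p = 0.0903). CYP86A8, known as LACERATA from its torn leaves in the mutant (AT2G45970, chr2:18912095-18914739), stood at 309, 322 and 303 in WT, 338, 313 and 303 in Type I, 513, 451 and 347 in Type II, 216, 172 and 198 in Type III, and 213, 227 and 228 in Type IV. Type II lay above WT, and Types III and IV below it, without overlap. Against WT the log2 fold changes were 0.47 ± 0.13 (SE, adjusted p = 0.0208) in Type II, -0.68 ± 0.13 (SE, adjusted p = 0.000477) in Type III and -0.48 ± 0.13 (SE, adjusted p = 0.00885) in Type IV. CYP86A8 lost its Type II call after centring per chromosome (adjusted p = 0.922), with the compared groups alone (adjusted p = 0.09) and without WT replicate 3 or Type II replicate 1 or 2 (adjusted p = 0.0648 to 0.0926). CYP86A7 stood at 53.8, 34.6 and 38.5 in WT, 25.1, 16.6 and 20.3 in Type II, 11.7, 18.7 and 3.06 in Type III, and 21.5, 19.2 and 24.4 in Type IV. It fell in Type III, with a log2 change of -2.08 ± 0.43 (SE, adjusted p = 0.00113).

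The epoxidases CYP77B1 and CYP77A4, which act on fatty acids, fell in Type III, with a log2 change of -0.78 ± 0.15 (SE, adjusted p = 0.000577) and -1.28 ± 0.30 (SE, adjusted p = 0.00319). CYP77B1 stood at 154, 104 and 131 in WT, and 83.1, 63.7 and 76.4 in Type III, without overlap. CYP86C2 rose in Type III, with a log2 change of 0.81 ± 0.30 (SE, adjusted p = 0.0378), and lost this call in many settings, with no filter (adjusted p = 0.0572), with library totals (adjusted p = 0.0671), in DESeq2 (adjusted p = 0.0804), after centring per chromosome (adjusted p = 0.399), with the compared groups alone (adjusted p = 0.0538) and without WT replicate 2 or 3 or Type III replicate 1 or 2 (adjusted p = 0.0519 to 0.145). CYP96A12, of a family in which a related enzyme hydroxylates wax alkanes (AT4G39510, chr4:18368685-18370698), stood at 233, 241 and 223 in WT, 309, 186 and 236 in Type I, 274, 202 and 206 in Type II, 72.2, 58.1 and 67.3 in Type III, and 100.3, 125 and 108 in Type IV. Types III and IV lay below all WT libraries and Types I and II overlapped with them. Its fold changes on the log2 scale were -1.81 ± 0.17 (SE, adjusted p = 1.27e-06) in Type III and -1.06 ± 0.17 (SE, adjusted p = 0.000389) in Type IV. Its Type IV log2 fold change was -0.65 after centring per chromosome. CYP96A4 stood at 173, 95.5 and 63.8 in WT, 223, 131 and 277 in Type II, and 15.3, 34.7 and 15.3 in Type III and fell, with a log2 change of -2.28 ± 0.36 (SE, adjusted p = 0.000122) in Type III, where the third tested gene of the subfamily, CYP96A1, fell, with a log2 change of -1.11 ± 0.29 (SE, adjusted p = 0.00559).

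Of 11 partners in cutin and wax synthesis 1 rose and 6 fell in Type III, 2 rose and 2 fell in Type IV, and 1 rose and 1 fell in Type II. Shares of all loci called higher and lower were 24% and 23.6% in Type III and 16% and 17% in Type IV. They were 10.2% and 4.38% in Type II. PEL3, an acyltransferase of the cuticle, had a log2 change of -0.87 ± 0.12 (SE, adjusted p = 4.47e-05) in Type III. LACS2, which activates the fatty acids, had -0.77 ± 0.12 (SE, adjusted p = 9.73e-05). CER2, needed for elongation of wax precursors, had -0.58 ± 0.11 (SE, adjusted p = 0.000641) in Type III and -0.56 ± 0.11 (SE, adjusted p = 0.00181) in Type IV. CER2 lost its Type IV call after centring per chromosome (adjusted p = 0.394).

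CYP78A genes promote the growth of leaves, flowers and seeds, and the 4 tested members moved in different directions. CYP78A5, known as KLUH, stood at 53.8, 45.5 and 62.6 in WT, 93.6, 105 and 89.5 in Type I, 56.1, 52.8 and 43.4 in Type II, 94.8, 154 and 92.8 in Type III, and 165, 126 and 113 in Type IV (AT1G13710, chr1:4702657-4704694). Types I, III and IV lay above WT without overlap, and Type II overlapped. The log2 fold change was 1.03 ± 0.20 (SE, adjusted p = 0.000721) in Type III and 1.297 ± 0.20 (SE, adjusted p = 0.000332) in Type IV, and 0.83 ± 0.20 (SE, adjusted p = 0.119) in Type I, where it was not called. CYP78A6, which enlarges seeds when overproduced (AT2G46660, chr2:19153328-19155579), stood at 16.4, 13.6 and 16.8 in WT, 22.1, 21.2 and 20.9 in Type I, 53.1, 51.7 and 53.6 in Type II, 9.93, 7.5 and 8.15 in Type III, and 11.1, 11.7 and 23.5 in Type IV. Type II lay 3.25-fold above WT, and Type III below it. For this gene the log2 fold changes were 1.700 ± 0.26 (SE, adjusted p = 0.0008196) in Type II and -0.81 ± 0.26 (SE, adjusted p = 0.01996) in Type III. CYP78A6 lost its Type III call in DESeq2 (adjusted p = 0.0904), with the compared groups alone (adjusted p = 0.0592) and without WT replicate 1 or 3 or Type III replicate 2 (adjusted p = 0.0508 to 0.0622).

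CYP78A8 stood at 30.4, 30.9 and 31.3 in WT, 24.2, 23.1 and 11.6 in Type I, 18.05, 15.5 and 15.7 in Type II, 12.6, 17.8 and 6.12 in Type III, and 3.18, 4.26 and 11.7 in Type IV. All mutant libraries lay below WT, those of Type IV lowest on average. It fell, with a log2 change of -1.38 ± 0.43 (SE, adjusted p = 0.0156) in Type III and -2.28 ± 0.43 (SE, adjusted p = 0.00119) in Type IV. CYP78A8 lost its Type III call without Type III replicate 3 (adjusted p = 0.0829). CYP78A9, a paralogue of CYP78A6, stood at 36.2, 29.1 and 40.9 in WT, 64.4, 50.2 and 55.8 in Type I, and 57.3, 64.9 and 63.6 in Type IV. It rose in Type IV, with a log2 change of 0.80 ± 0.21 (SE, adjusted p = 0.009896), and in Type I the value of 0.67 ± 0.21 (SE, adjusted p = 0.193) was not called although the libraries did not overlap with WT. Flower marker sums were above WT in Types I, III and IV as given above, where CYP78A5 lay above WT and CYP78A8 below it. In Type II these sums were below WT, CYP78A5 overlapped with WT and CYP78A8 again lay below it. CYP78A members are also expressed in flowers, and a link between these values was not tested.

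Of 5 tested genes on the terpenoid list, 3 were higher in Type IV, where 16% of all loci were called higher. They were CYP76C1, CYP76C5 and CYP76C6, of a subfamily that oxidizes monoterpene alcohols such as linalool. CYP76C1 stood at 144, 122 and 109.5 in WT, 164, 158 and 177 in Type I, 246, 241 and 214 in Type II, 426, 391 and 384 in Type III, and 239.6, 233 and 179 in Type IV (AT2G45560, chr2:18776015-18778676). Every mutant library lay above every WT library. Limma gave log2 fold changes of 0.90 ± 0.13 (SE, adjusted p = 0.000494) in Type II, 1.68 ± 0.13 (SE, adjusted p = 1.80e-07) in Type III and 0.79 ± 0.13 (SE, adjusted p = 0.000409) in Type IV, and 0.42 ± 0.13 (SE, adjusted p = 0.1797) in Type I, where it was not called. CYP76C1 lost its Type II call after centring per chromosome (adjusted p = 0.115). CYP76C6 stood at 365, 255 and 304 in WT, 168, 193 and 188 in Type I, 209, 116 and 169 in Type II, 158, 190.3 and 231 in Type III, and 913, 781 and 672 in Type IV (AT1G33720, chr1:12220858-12224108). Type IV lay above all WT libraries, and Types I, II and III below them. On the log2 scale the fold changes were -0.93 ± 0.20 (SE, adjusted p = 0.00628) in Type II, -0.67 ± 0.20 (SE, adjusted p = 0.0118) in Type III and 1.36 ± 0.20 (SE, adjusted p = 0.000213) in Type IV. CYP76C6 lost its Type III call without Type III replicate 1 (adjusted p = 0.0601). Its neighbour CYP76C5 stood at 12.9, 0.909 and 6.02 in WT, 4.03, 0.964 and 0 in Type I, 8.02, 3.104 and 10.2 in Type II, 3.61, 7.5 and 9.17 in Type III, and 42.98, 24.5 and 33.2 in Type IV, and rose in Type IV, with a log2 change of 2.56 ± 0.71 (SE, adjusted p = 0.01304). CYP76C5 lost its Type IV call without WT replicate 2 or Type IV replicate 1 (adjusted p = 0.0542 to 0.0654).

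CYP706A3, which oxidizes sesquiterpenes and monoterpenes in flowers, stood at 23.4, 17.3 and 15.6 in WT, 71.5, 62.7 and 44.2 in Type I, 11.03, 7.24 and 22.2 in Type II, 36.1, 84.4 and 43.8 in Type III, and 55.7, 55.4 and 78.2 in Type IV. Types I, III and IV lay above WT without overlap. Its log2 fold change was 1.42 ± 0.36 (SE, adjusted p = 0.00514) in Type III and 1.698 ± 0.36 (SE, adjusted p = 0.00286) in Type IV. In Type I the value was 1.604 ± 0.36 (SE, adjusted p = 0.106), and DESeq2 called it (adjusted p = 0.00967). Flower marker sums were likewise above WT in Types I, III and IV, and a link with CYP706A3 was not tested. CYP706A1, a gene of the same subfamily with no role given here, stood at 996, 840.1 and 856 in WT, 987, 905 and 1045 in Type I, 1664, 1192 and 1191 in Type II, 279.9, 435 and 409 in Type III, and 512, 472 and 659 in Type IV (AT4G22690, chr4:11929359-11931750). Type II lay above WT, and Types III and IV below it, without overlap. Against WT the log2 fold changes were 0.57 ± 0.17 (SE, adjusted p = 0.0369) in Type II, -1.28 ± 0.17 (SE, adjusted p = 3.16e-05) in Type III and -0.72 ± 0.17 (SE, adjusted p = 0.00542) in Type IV. CYP706A1 lost its Type II call with the compared groups alone (adjusted p = 0.0535) and without WT replicate 2 or 3 or Type II replicate 1 (adjusted p = 0.11 to 0.148). CYP706A1 lost its Type IV call after centring per chromosome (adjusted p = 0.178).

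Indole and defence genes rose in Type II for 3 of 5 tested, and 1 fell in each of Types III and IV. Over all loci, 10.2% were called higher in Type II, and 23.6% and 17% lower in Types III and IV. CYP71B6 and CYP71A12 lie on chromosome 2, where 51.4% of all loci were called higher in Type II. CYP71B6, which acts on indole acetonitrile, stood at 562, 361 and 384 in WT, 449, 416 and 459 in Type I, 839, 718 and 808 in Type II, 395, 442 and 431 in Type III, and 399, 413 and 505 in Type IV. Type II lay above all other libraries. It rose there, with a log2 change of 0.88 ± 0.14 (SE, adjusted p = 0.00111). CYP71B6 lost its Type II call after centring per chromosome (adjusted p = 0.16). CYP71A12, which takes indole acetaldoxime towards defence compounds, stood at 16.4, 5.46 and 3.61 in WT, 20.1, 2.89 and 22.1 in Type I, 90.2, 93.1 and 82.2 in Type II, 0, 25.3 and 16.3 in Type III, and 16.7, 6.39 and 44.98 in Type IV, and its nearest paralogue is among the excluded codes, so some reads may match both genes. It rose in Type II, with a log2 change of 3.48 ± 1.03 (SE, adjusted p = 0.0358). CYP71A12 lost its Type II call with a pseudocount of 0.5 (adjusted p = 0.0566), after centring per chromosome (adjusted p = 0.131) and without WT replicate 2 or 3 or Type II replicate 1 or 2 or 3 (adjusted p = 0.0806 to 0.122). CYP81F4 stood at 141, 70.01 and 42.1 in WT, 380.5, 514 and 227 in Type I, 316, 212 and 769 in Type II, 71.3, 180.0 and 117 in Type III, and 194, 52.2 and 54.8 in Type IV and rose in Type II, with a log2 change of 2.299 ± 0.57 (SE, adjusted p = 0.01495). Its Type I libraries lay above WT as well, at 2.23 ± 0.57 (SE, adjusted p = 0.129), which was not called. CYP81F4 lost its Type II call without WT replicate 3 or Type II replicate 3 (adjusted p = 0.073 to 0.0754). CYP81F3, next to it on the chromosome, stood at 26.9, 20.003 and 24.1 in WT, 19.1, 28.9 and 20.9 in Type I, 24.1, 23.8 and 20.3 in Type II, 4.51, 8.44 and 5.096 in Type III, and 6.37, 10.6 and 9.78 in Type IV. It fell, with a log2 change of -1.84 ± 0.29 (SE, adjusted p = 0.000125) in Type III and -1.33 ± 0.29 (SE, adjusted p = 0.00314) in Type IV, without overlap with WT.

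CYP81D genes are known to respond to foreign and reactive compounds. CYP81D11 stood at 1.17, 8.18 and 1.203 in WT, 8.05, 9.64 and 10.5 in Type I, 9.02, 7.24 and 17.5 in Type II, 30.7, 119 and 94.8 in Type III, and 20.7, 19.2 and 6.85 in Type IV (AT3G28740, chr3:10788698-10790553). Type III lay above all WT libraries, and Type IV overlapped with WT replicate 2. The log2 fold change of 4.34 ± 0.61 (SE, adjusted p = 4.67e-05) in Type III was the largest rise of any tested P450 gene in that comparison, and in Type IV it was 2.096 ± 0.61 (SE, adjusted p = 0.0164). CYP81D11 lost its Type IV call in edgeR (adjusted p = 0.0561), with the compared groups alone (adjusted p = 0.0681) and without WT replicate 1 or 3 or Type IV replicate 1 or 2 (adjusted p = 0.0544 to 0.0704). Its Type IV log2 fold change was 1.29 with a pseudocount of 5. CYP81D8 stood at 209, 71.8 and 60.2 in WT, 68.4, 54.01 and 52.3 in Type I, 99.3, 40.3 and 74.8 in Type II, 26.2, 30.0 and 29.6 in Type III, and 76.4, 71.3 and 153 in Type IV, so that WT replicate 1 was well above the other WT libraries. It fell in Type III, with a log2 change of -1.73 ± 0.41 (SE, adjusted p = 0.00327). CYP81D1 fell there, with a log2 change of -0.98 ± 0.38 (SE, adjusted p = 0.0454) with overlapping libraries, and the call was lost with no filter (adjusted p = 0.0604), after centring per chromosome (adjusted p = 0.0761), with the compared groups alone (adjusted p = 0.0905) and without WT replicate 1 or 2 or Type I replicate 1 or Type II replicate 1 or 3 or Type III replicate 1 or 3 or Type IV replicate 3 (adjusted p = 0.05 to 0.224).

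Position on the chromosome went with the direction of many calls. Of 41 tested P450 genes on chromosome 3, 24 rose and 1 fell in Type III, where 56.6% of all loci on chromosome 3 were called higher and 5.83% lower. On chromosome 2, 6 of 15 rose and none fell in Type II, where 51.4% of loci were called higher and 0% lower. On chromosome 4, none of 17 rose and 6 fell in Type IV, where 3.07% of loci were called higher and 48.9% lower. These shares of P450 genes, 58.5%, 40% and 35.3%, are near or below those of the chromosome. Elsewhere, 15 of 41 genes on chromosome 3 rose and none fell in Type IV, where 21.4% of loci there rose and 8.72% fell. On chromosome 1, 3 of 22 rose and 10 fell in Type III, where 15.5% and 27.6% of loci were called.

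**Figure D3:**
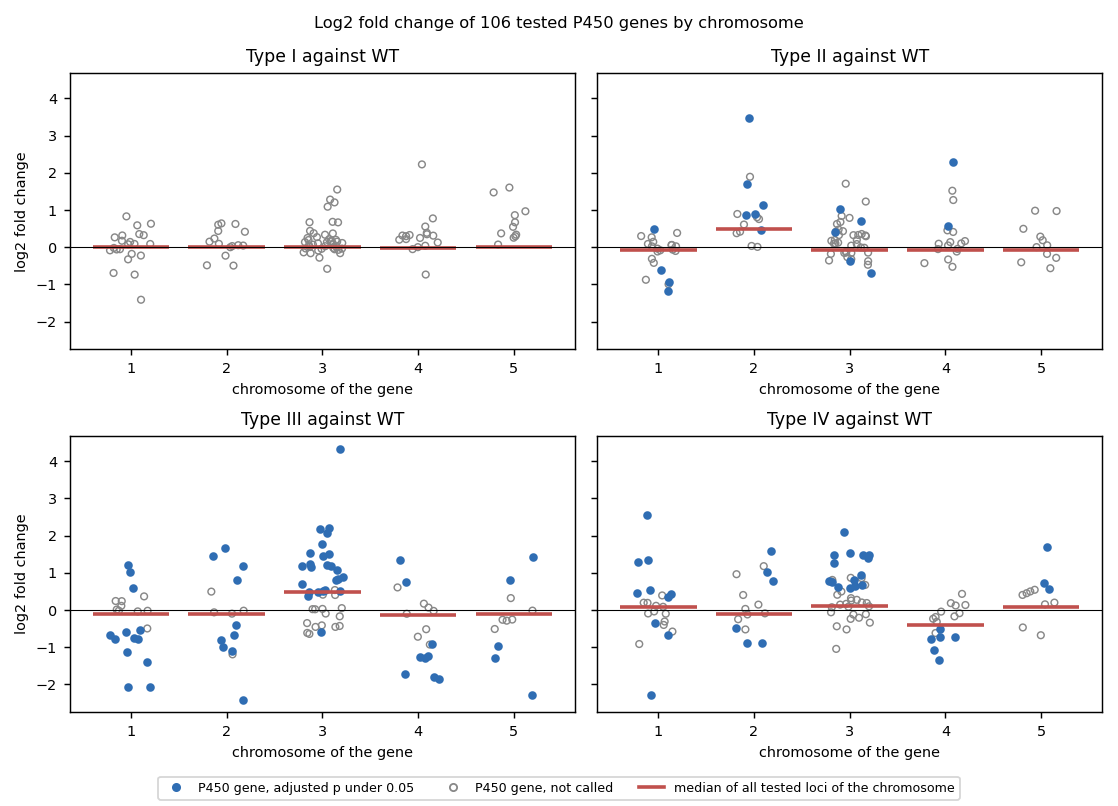
Points are log2 fold changes against WT of the 106 tested P450 genes in each subtype, by chromosome of the gene, filled where called (limma, adjusted p under 0.05), and red lines are medians of all tested loci of that chromosome. In Type III 24 of 41 genes on chromosome 3 were called higher, and in Type IV 6 of 17 on chromosome 4 were called lower.

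The largest family, CYP71, had 46 genes with 24 tested, of which 8 rose and 4 fell in Type III, 9 rose and none fell in Type IV, and 3 rose in Type II. All loci gave 24% higher and 23.6% lower in Type III, 16% and 17% in Type IV, and 10.2% higher in Type II. Many of these rises in Types III and IV lay in a pair of tandem runs on chromosome 3 with 9 and 6 genes. In the first, from CYP71B16, 2 of 6 tested genes rose and 1 fell in Type III, and 3 rose in Type IV. In the second, from CYP71B25, 3 of 5 rose in each of Types III and IV. Of all loci on chromosome 3, 56.6% were called higher and 5.83% lower in Type III, and 21.4% higher in Type IV. No substrate is given here for these genes. Promoter windows of 3 of them, the 250 bases before the annotated start, are shown because their genes rose in both subtypes and hold a sequence known as a binding site of clock factors. The windows were chosen after the values were seen. All lie on the minus strand of TAIR10.1 and are written 5′ to 3′ along the gene from RefSeq's genome, at chr3:9580114-9580363 for CYP71B20, chr3:9632146-9632395 for CYP71B4 and chr3:9634823-9635072 for CYP71B26. Capitals mark the evening element (AAAATATCT, on the opposite strand in both windows that hold it) or the CCA1-binding site (AAAAATCT, in CYP71B4).
CYP71B20: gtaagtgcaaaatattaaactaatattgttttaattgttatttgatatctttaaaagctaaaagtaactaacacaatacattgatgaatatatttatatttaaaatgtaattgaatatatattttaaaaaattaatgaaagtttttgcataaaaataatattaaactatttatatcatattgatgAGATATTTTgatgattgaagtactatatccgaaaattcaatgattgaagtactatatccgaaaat
CYP71B4: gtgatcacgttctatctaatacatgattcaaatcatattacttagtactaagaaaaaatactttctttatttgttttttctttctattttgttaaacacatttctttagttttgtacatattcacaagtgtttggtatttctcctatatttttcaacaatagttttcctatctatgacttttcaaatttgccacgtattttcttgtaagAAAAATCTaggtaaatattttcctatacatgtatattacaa
CYP71B26: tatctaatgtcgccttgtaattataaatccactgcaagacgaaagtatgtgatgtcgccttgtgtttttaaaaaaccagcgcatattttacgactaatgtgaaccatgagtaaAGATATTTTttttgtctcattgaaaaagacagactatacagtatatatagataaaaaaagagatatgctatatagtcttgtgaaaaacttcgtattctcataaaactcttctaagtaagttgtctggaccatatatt

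The evening element was found on either strand in 2.36% of the windows of 27443 nuclear protein-coding genes, and the CCA1-binding site in 6.69%. Among the 35 P450 genes that rose in Type III, 2 windows held the first (5.71%) and 4 held the second (11.4%). Among the 27 that fell, 0 held the first and 2 the second (7.41%). The G-box CACGTG was in 2 windows of the risen and 3 of the fallen genes, with 6.49% of all windows. The core TGACG of TGA factor sites was in 6 of the risen and 3 of the fallen, with 18.6% of all windows. These are descriptions of letters in the windows.

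CYP71B4, whose window holds the CCA1-binding site, stood at 292, 294 and 288 in WT, 393, 372 and 366 in Type I, 314, 317 and 357 in Type II, 1026, 1028 and 956 in Type III, and 490.3, 524 and 400.0 in Type IV (chr3:9630128-9632145). Libraries of all 4 subtypes lay above WT, and those of Type III stood highest. Its fold changes on the log2 scale were 1.78 ± 0.10 (SE, adjusted p = 1.13e-08) in Type III and 0.68 ± 0.10 (SE, adjusted p = 0.000166) in Type IV, the smallest adjusted p among P450 genes in the former. CYP71B26, the next gene of the run, stood at 194, 155 and 160.0 in WT, 230.5, 161 and 156 in Type I, 147, 179 and 142 in Type II, 689.7, 802 and 642 in Type III, and 313, 289.5 and 279 in Type IV. Types III and IV lay above WT without overlap. The values were 2.06 ± 0.15 (SE, adjusted p = 1.32e-07) in Type III and 0.79 ± 0.15 (SE, adjusted p = 0.00123) in Type IV. After centring per chromosome, both genes remained called in both subtypes. CYP71B20 stood at 588, 384 and 414 in WT, 610.0, 469.7 and 657 in Type I, 631, 605 and 586 in Type II, 749, 822 and 876 in Type III, and 714, 638 and 729 in Type IV, and rose, with a log2 change of 0.84 ± 0.15 (SE, adjusted p = 0.000305) in Type III and 0.61 ± 0.15 (SE, adjusted p = 0.00595) in Type IV. CYP71B20 lost its Type III call after centring per chromosome (adjusted p = 0.0576).

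CYP71B19 stood at 108, 50.01 and 56.6 in WT, 64.4, 54.01 and 101 in Type I, 82.2, 63.1 and 116 in Type II, 204, 187 and 196 in Type III, and 170.3, 183 and 224 in Type IV. Types III and IV lay above WT, where replicate 1 was highest, and rose, with a log2 change of 1.53 ± 0.28 (SE, adjusted p = 0.000471) and 1.49 ± 0.28 (SE, adjusted p = 0.00123). CYP71B22 in the same run went the other way in Type III: it stood at 116, 155 and 199.8 in WT, 149, 133 and 150.0 in Type I, 249, 233 and 265 in Type II, 102, 113 and 91.7 in Type III, and 131, 121 and 146 in Type IV, so that Type II lay above and Type III below WT. The log2 fold change was 0.70 ± 0.16 (SE, adjusted p = 0.00958) in Type II and -0.58 ± 0.16 (SE, adjusted p = 0.00812) in Type III. CYP71B22 lost its Type II call with the compared groups alone (adjusted p = 0.0626). Its Type III log2 fold change was -1.06 after centring per chromosome. CYP71B3 and CYP71B36 rose in Type IV, with a log2 change of 1.26 ± 0.22 (SE, adjusted p = 0.000777) and 1.39 ± 0.36 (SE, adjusted p = 0.00841), and were not called in Type III. CYP71A24, of another run on chromosome 3, stood at 11.7, 12.7 and 12.03 in WT, 28.2, 26.04 and 26.7 in Type I, and 37.9, 33.7 and 37.7 in Type III and rose in Type III, with a log2 change of 1.51 ± 0.29 (SE, adjusted p = 0.000637). On chromosome 1 the run from CYP71B2 had 5 tested genes, 4 of CYP71B and CYP86C3, of which CYP71B2, CYP71B29 and CYP71B7 fell in Type III, with a log2 change of -1.11, -0.59 and -0.78 (adjusted p = 0.000551, 0.00336 and 0.000163). Of all loci on chromosome 1, 27.6% were called lower in Type III.

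**Figure D4:**
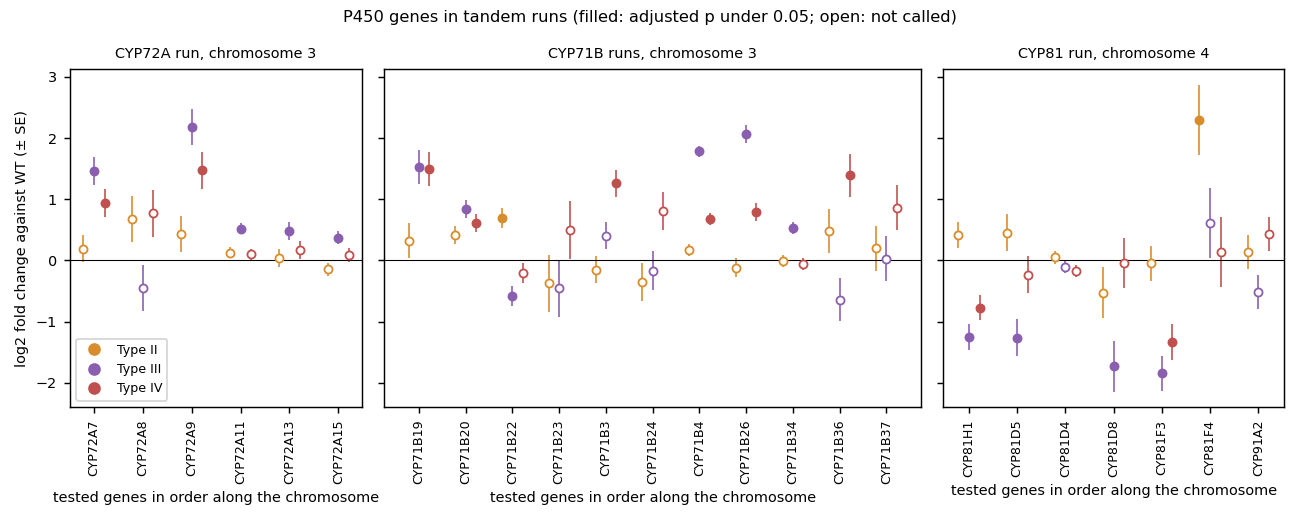
Points are log2 fold changes against WT with standard errors for tested genes of tandem runs in order along the chromosome, filled where called (limma, adjusted p under 0.05). In the run from CYP71B25, 3 of 5 genes were called higher in each of Types III and IV, and in the run from CYP81H1 4 of 7 were called lower in Type III. Of all loci on chromosome 3, 56.6% and 21.4% were called higher in Types III and IV. On chromosome 4, 28.6% of all loci were called lower in Type III.

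Other runs also held several called genes. In the CYP72A run on chromosome 3, 5 of 6 tested genes rose in Type III and 2 in Type IV. Of all loci on chromosome 3, 56.6% were called higher in Type III and 21.4% in Type IV. In Type III the log2 changes of CYP72A11, CYP72A13 and CYP72A15 were 0.52, 0.48 and 0.37, near the chromosome's median of 0.48. CYP72A7 and CYP72A9 lay above that median. CYP72A11, the second most abundant P450 gene per kb, stood at 1709.5, 1868 and 1901 in WT, 2077, 2042 and 2167 in Type I, 1961, 2194 and 1827 in Type II, 2586, 2447 and 2837 in Type III, and 2058, 2070.4 and 1756 in Type IV. It rose, with a log2 change of 0.52 ± 0.09 (SE, adjusted p = 0.000347) in Type III, where its libraries lay above WT. CYP72A11 lost its Type III call after centring per chromosome (adjusted p = 0.715). CYP72A7 rose, with a log2 change of 1.46 ± 0.23 (SE, adjusted p = 0.00011) in Type III and 0.94 ± 0.23 (SE, adjusted p = 0.00566) in Type IV. On chromosome 4 the run from CYP81H1 had 7 of 9 genes tested, of which 4 fell in Type III, 2 fell in Type IV and CYP81F4 rose in Type II. Of all loci on chromosome 4, 28.6% were called lower in Type III, 48.9% lower in Type IV and 2.69% higher in Type II. CYP81H1 stood at 380.0, 235 and 255 in WT, 450.2, 368 and 323 in Type II, 111, 123 and 123 in Type III, and 144, 131 and 242 in Type IV and fell, with a log2 change of -1.25 ± 0.21 (SE, adjusted p = 0.000246) and -0.77 ± 0.21 (SE, adjusted p = 0.0125). CYP81H1 lost its Type IV call after centring per chromosome (adjusted p = 0.196), with the compared groups alone (adjusted p = 0.0732) and without WT replicate 1 or Type IV replicate 1 or 2 (adjusted p = 0.0515 to 0.0612). CYP81D5 fell, with a log2 change of -1.26 ± 0.30 (SE, adjusted p = 0.00334) in Type III.

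In the CYP705A subfamily, where 5 of 21 genes were tested, 4 rose in Type III and 2 in Type IV. All 5 lie on chromosome 3, where 56.6% of all loci were called higher in Type III and 21.4% in Type IV. CYP705A33 stood at 26.9, 13.6 and 15.6 in WT, 25.2, 13.5 and 24.4 in Type I, 13.03, 12.4 and 17.5 in Type II, 46.04, 36.6 and 47.9 in Type III, and 68.5, 38.3 and 52.8 in Type IV. Types III and IV lay above WT, with 1.22 ± 0.30 (SE, adjusted p = 0.00421) in Type III and 1.48 ± 0.30 (SE, adjusted p = 0.002204) in Type IV. CYP705A33 lost its Type III call after centring per chromosome (adjusted p = 0.0603). CYP705A19 fell in Type II, with a log2 change of -0.70 ± 0.19 (SE, adjusted p = 0.0196). CYP705A19 lost its Type II call after centring per chromosome (adjusted p = 0.0785), with the compared groups alone (adjusted p = 0.064) and without WT replicate 3 or Type II replicate 3 (adjusted p = 0.0916 to 0.0923). A pair of genes without a P450 name in the reference also changed. AT2G12190 stood at 19.9, 11.8 and 18.1 in WT, 32.5, 59.1 and 49.9 in Type III, and 42.98, 53.2 and 57.7 in Type IV, and rose, with a log2 change of 1.44 ± 0.32 (SE, adjusted p = 0.00199) and 1.59 ± 0.32 (SE, adjusted p = 0.00196). AT3G44970 stood at 50.3, 34.6 and 34.9 in WT, and 68.2, 114 and 68.3 in Type II and rose in Type II, with a log2 change of 1.02 ± 0.22 (SE, adjusted p = 0.00693).

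The electron donors of P450 enzymes did not move as 1 group. Of 6 reductase and cytochrome b5 genes, 3 rose and 1 fell in Type III, 2 rose and 1 fell in Type IV, and 1 rose in Type II. For comparison, all loci gave 24% higher and 23.6% lower in Type III and 16% and 17% in Type IV. In Type II 10.2% of all loci were called higher. ATR2 stood at 1952, 1758 and 1831 in WT, 1964, 2049.5 and 2101 in Type I, 1885, 1771 and 2129.8 in Type II, 1199, 1090.3 and 1377 in Type III, and 1196, 1234 and 1096 in Type IV. It fell, with a log2 change of -0.60 ± 0.10 (SE, adjusted p = 0.000139) in Type III and -0.65 ± 0.10 (SE, adjusted p = 0.000215) in Type IV, with no overlap with WT. ATR2 lost its Type IV call after centring per chromosome (adjusted p = 0.115). ATR1 stood at 1322, 1230.2 and 1244 in WT, 1769, 1706 and 1799 in Type III, and 1399, 1397 and 1537 in Type IV and rose, with a log2 change of 0.47 ± 0.09 (SE, adjusted p = 0.000522) in Type III. The cytochrome b5 gene CB5-D rose, with a log2 change of 0.43 ± 0.09 (SE, adjusted p = 0.00166) in Type III and 0.62 ± 0.09 (SE, adjusted p = 0.000254) in Type IV.

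Against Type I, the mutant that looked like WT, 6 P450 genes were higher and 6 lower in Type II, with 9.45% of all loci called higher and 4.81% lower. In Type III 29 were higher and 31 lower, where all loci gave 21.3% and 20.3%. In Type IV 17 were higher and 21 lower, where all loci gave 12.7% and 15.1%. Centring per chromosome changed the splits to 1 and 3 in Type II, where 1.07% of all loci were then called in each direction, and to 17 and 36 in Type III, where 16.9% were called higher and 18% lower. Scaling to library totals gave 9 and 4 in Type II, where 12.2% of all loci were called higher and 2.14% lower. That scaling moved the median log2 fold change of all loci from -0.02 to 0.09 in Type II and from 0.01 to 0.12 in Type IV. The lower count in Type IV was 12 without Type I replicate 1 and 11 without Type IV replicate 1. The higher count in Type II was 3 without Type I replicate 1 or 2 or without Type II replicate 2. In Type I against WT, 79 of 106 P450 genes lay above 0, where 49.98% of all loci did, and the median of 0.16 ranged from 0.09 to 0.31 as each library was left out.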

How the data were processed

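Leaf RNA gave 15 sequencing libraries, 3 for WT and 3 for every ubc22 subtype, grouped as labelled. The kit named in the labels does not mark strand. The submitters' processing notes name, without roles, DESeq2 1.12.4, HTSeq 0.6.0, StringTie 1.0.3 and STAR 2.4.0j, and the genome TAIR10. The deposited table by the authors holds a normalized signal per locus, that is, read counts divided by a size factor of each library. Within a tolerance of 1e-06, 100% of values were whole multiples of 1 step per library, so whole reads were recovered (8865955 to 13138977 a library). They served as counts for edgeR 4.0.16 and DESeq2 1.42.0 only. Rows of 260 loci carried no gene code (0.136% of reads).

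The test was limma's (version 3.58.1, in R 4.3.3), run on log2(value + 1) with the variance trended on the mean. The 17595 loci whose mean reached 10 were fitted, all 15 libraries together (10 residual degrees of freedom), with Benjamini-Hochberg adjustment over all loci tested. The P450 genes, role lists, partner lists and tests were chosen with earlier results of these data known. Named genes are up to 8 risen and 8 fallen in each subtype by log2 fold change (called, groups without overlap), tested genes of 9 role lists, up to 3 by p of other lists and of partner lists, the 5 highest per kb, and those called in opposite directions. Other genes named (such as CYP71B20, CYP71B3 and members of runs) and the promoter windows were chosen after their values were seen. Gene positions, transcript lengths and promoters come from RefSeq's TAIR10.1, in which all 228 genes were found. Alternatives were other pseudocounts, minimum means, scalings and tools, centring per chromosome, the compared groups alone, a threshold of 0.01, and leaving out each library. Replicate numbers are not shared between groups in the labels, and nothing was paired.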

Additional observations from a re-analysis of the deposited data

Results flagged for a closer look

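Of the tested P450 genes, 6 were called in opposite directions in a pair of subtypes against WT, which made 9 pairs. The share of all loci called in opposite directions was not counted. Limma's test of the direct difference between the subtypes passed in all 9. The pairs were picked by opposite calls in the same libraries, so this outcome was largely set by that choice. The subtypes of a pair share their WT libraries, which do not enter the direct difference. After centring per chromosome, CYP86A8 and CYP710A2 lost their Type II calls against WT, and CYP706A1 lost its Type IV call. Differences below are on the log2 scale.

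Between Types III and II, Type III was lower for CYP710A2 (difference -2.13, adjusted p = 2.90e-05), CYP86A8 (-1.15, adjusted p = 3.98e-06), CYP78A6 (-2.51, adjusted p = 2.73e-06), CYP71B22 (-1.28, adjusted p = 1.38e-05) and CYP706A1 (-1.85, adjusted p = 9.64e-07). CYP710A2, CYP86A8 and CYP78A6 lie on chromosome 2, where genes of Type II were shifted upwards by 0.57. The difference for CYP71B22 goes against the shift of its own chromosome 3 in Type III. After centring per chromosome these 5 differences ranged from -0.55 to -1.91, each with an adjusted p of 0.00237 or less.

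Between Types IV and II, Type IV was lower for CYP86A8 (-0.95, adjusted p = 5.65e-05) and CYP706A1 (-1.30, adjusted p = 6.10e-05), and higher for the monoterpene oxidase gene CYP76C6 (2.28, adjusted p = 3.98e-06). CYP76C6 was also higher in Type IV than in Type III (2.03, adjusted p = 8.76e-06). After centring per chromosome, the Type IV against Type II difference of CYP86A8 on chromosome 2 was -0.34 and no longer passed (adjusted p = 0.0534), and that of CYP706A1 on chromosome 4 was -0.95 (adjusted p = 0.000971). CYP76C6 lies on chromosome 1, which had smaller shifts of -0.06, -0.13 and 0.12 in Types II to IV.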

How the results depend on the processing

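No paired analysis was possible because the labels share no replicate numbers between groups. The counts of P450 genes called higher and lower kept within 1.5 times of the reported count in most settings, with these exceptions. In Type I against WT DESeq2 called 3 higher and 1 lower. Centring per chromosome gave 7 higher and 3 lower in Type II, 23 higher in Type III, and against Type I it gave 1 higher and 3 lower in Type II and 17 higher in Type III. A minimum mean of 50, which tests fewer genes, gave 21 higher in Type III against WT and 19 against Type I. A threshold of 0.01 gave 5 higher and 3 lower in Type II and 7 lower in Type IV against WT, and against Type I 3 higher in Type II, 18 higher in Type III, and 11 higher and 8 lower in Type IV.

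With each library left out in turn, counts against WT ranged from 0 to 1 higher and 0 to 0 lower in Type I, 6 to 21 and 3 to 6 in Type II, 29 to 38 and 23 to 28 in Type III, and 21 to 33 and 8 to 13 in Type IV. Against Type I they ranged from 3 to 8 and 4 to 7 in Type II, 21 to 31 and 27 to 33 in Type III, and 12 to 21 and 11 to 24 in Type IV.

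Only centring per chromosome turned a called direction or made a called fall of an uncalled rise among named genes: CYP72A11 in Type III against Type I (-0.16), CYP76C1 in Type II against Type I (-0.0149), CYP86A8 in Type II against WT (-0.0295) and against Type I (-0.0623), and LUT1 in Type III against WT (-0.42) and against Type I (-0.29). On recovered reads edgeR called 15 P450 genes higher and 5 lower in Type II, 34 and 27 in Type III, and 26 and 12 in Type IV, and DESeq2 called 16 and 6, 34 and 26, and 27 and 13. Over all loci edgeR called 10.6% higher and 4.08% lower in Type II, 23.7% and 24.1% in Type III, and 15.9% and 17% in Type IV. DESeq2 called 10.7% and 4.84%, 23% and 22.9%, and 15.1% and 16.4% of all loci. The 3 libraries a group and the low counts of 122 untested genes limit what could be detected.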
